A study of Mus musculus with 4 samples.

Results

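Endothelial cells line every vessel of the liver. Those of the sinusoid, the low-pressure capillary of the liver, are perforated, lack a continuous basement membrane and carry scavenger receptors such as Stab2 and the lectin Clec4g. Those of arteries, portal veins and central veins form a closed lining and carry proteins such as von Willebrand factor, P-selectin and CD34. In chronic injury sinusoidal cells are known to lose their pores and to gain genes of closed capillaries, a change called capillarization. The endothelial barcodes described here were selected on vascular markers: Ednrb, the endothelin B receptor, which clears endothelin and couples to nitric oxide release, Selp (P-selectin), Vwf (von Willebrand factor) and Cd34.

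A barcode, the tag of 1 droplet, was taken when it had at least 200 genes and at most 20% of its unique molecular identifiers (UMIs, counts of captured transcript molecules) from mitochondrial genes. It also needed at least 2 UMIs over Kdr, Ptprb, Egfl7 and Cdh5, 4 general endothelial genes, at least 2 UMIs over Ednrb, Selp, Vwf and Cd34, and at most 1 UMI over the leukocyte genes Cd3d, Cd3e, Cd79a, Clec4f and Csf3r. These measured values chose 469 barcodes, called members below, of the 24561 that passed the quality limits. Without the condition on the vascular genes the rule took 3608 endothelial barcodes, so that 3139 other endothelial barcodes stood beside the members. Since the 4 vascular genes chose the members, their levels are given as a description.

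Nonparenchymal liver cells were taken from mice of strain C57B6, wild type and 18 to 20 weeks of age. The TAA mouse received intraperitoneal thioacetamide, a hepatotoxin that causes fibrosis, over 12 weeks. Celecoxib, an inhibitor of cyclooxygenase 2, was added by mouth from week 5 of the same injections, at 7.5 mg/kg for the TAA+C7.5 mouse and 30 mg/kg for the TAA+C30 mouse. The control mouse received normal saline. Each group was 1 mouse and 1 library, so no difference below has a replicate check, no p-value is given, and a difference between mice cannot be told apart from one of treatment, dissociation or library. Intervals in parentheses are 95% intervals that cover counting error only.

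The libraries held 48419305 UMIs in TAA, 17888247 in TAA+C7.5, 27555592 in TAA+C30 and 26603317 in control. The median member had 11757 UMIs in TAA, 4767 in TAA+C7.5, 10064 in TAA+C30 and 7042.5 in control. TAA members thus held more UMIs than control members, while B cells of the 2 libraries had medians of 3345 UMIs in TAA and 3186 in control. A rule that asks for 2 UMIs is met more easily in a barcode with many UMIs. Between 9 and 14 barcodes were shared by each pair of libraries and 0 of them were members. Scrublet called 5 of the TAA members, 5 of the TAA+C7.5 members, 0 of the TAA+C30 members and 1 control member doublets, and these were kept.

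Members made up most endothelial barcodes of the TAA library and few of those of control. There were 243 members among 396 endothelial barcodes in TAA, 41 among 121 in TAA+C7.5, 21 among 77 in TAA+C30 and 164 among 3014 in control. As shares these were 61.4% (56.4 to 66.2) in TAA, 33.9% (25.5 to 43.0) in TAA+C7.5, 27.3% (17.7 to 38.6) in TAA+C30 and 5.44% (4.66 to 6.31) in control (Clopper-Pearson intervals). The 3 shares after thioacetamide lay above that of control, and those of the 2 celecoxib doses overlapped in their intervals. When every barcode was thinned to 1000 UMIs before the rule was applied, the share was 53.3% in TAA, 23.4% in TAA+C7.5 and 1.96% in control. In TAA+C30 only 22 endothelial barcodes were left after thinning, and 8 of them (36.4%) were members.

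The denominators of these shares differed far more than the members did. Endothelial barcodes were 6.08% of all kept barcodes in TAA, 1.99% in TAA+C7.5, 1.25% in TAA+C30 and 52.1% in control. Members were 3.73% (3.28 to 4.22) of kept barcodes in TAA, 0.674% (0.484 to 0.913) in TAA+C7.5, 0.340% (0.211 to 0.519) in TAA+C30 and 2.83% (2.42 to 3.29) in control. The TAA share of kept barcodes was 1.32 times that of control (1.08 to 1.62), while other endothelial barcodes numbered 153 in TAA and 2850 in control. Such shares describe a cell suspension, and a lower recovery of one cell type cannot be told apart from fewer of those cells in the liver.

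**Figure D1:**
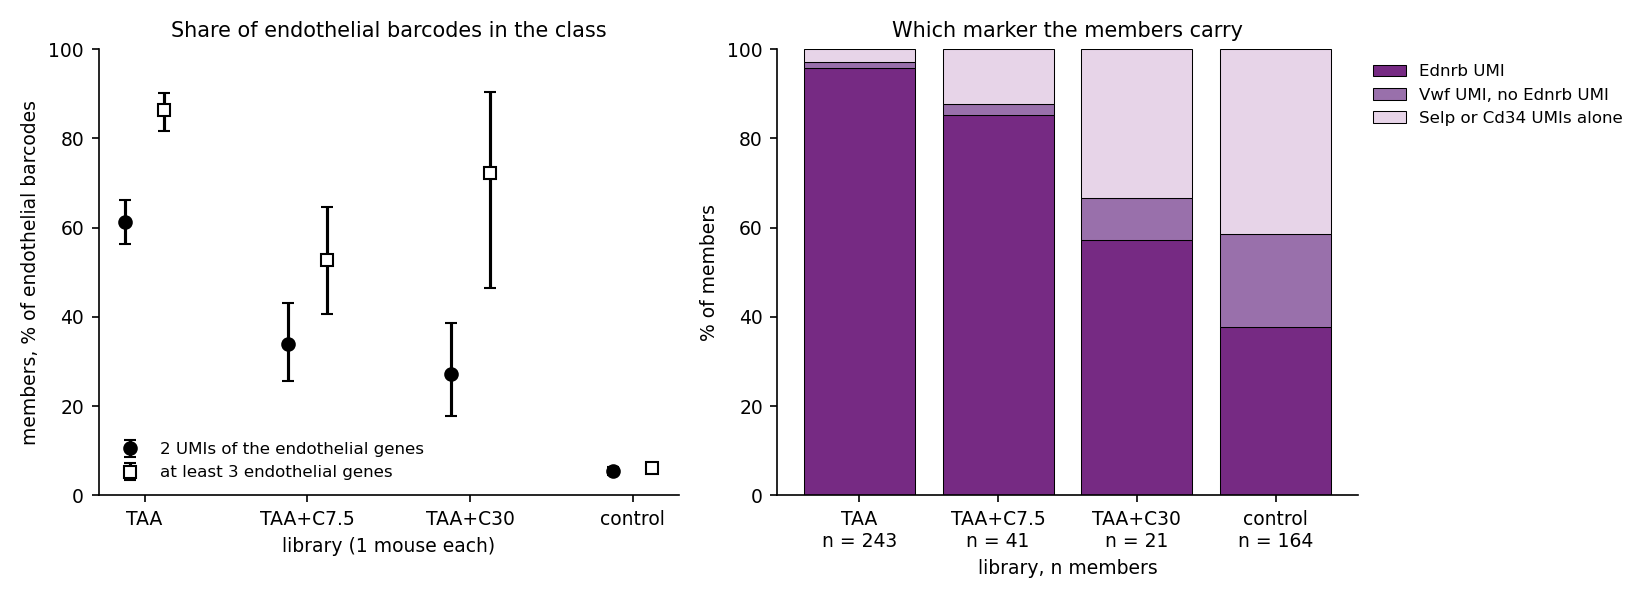
Left, members as a percentage of endothelial barcodes (y axis) in each library (x axis), for all endothelial barcodes (filled circles) and for those with at least 3 of the 4 endothelial genes (open squares), with 95% Clopper-Pearson intervals. Right, the percentage of members (y axis) with an Ednrb UMI, with a Vwf UMI but no Ednrb UMI, or with Selp or Cd34 UMIs alone. Control sits at 5.44% on the left, and Ednrb-positive members fill 95.9% of the TAA bar and 37.8% of the control bar on the right.

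Not all members carried several endothelial genes. At least 3 of Kdr, Ptprb, Egfl7 and Cdh5 were detected in 235 of the 243 TAA members, 38 of 41 TAA+C7.5 members, 13 of 21 TAA+C30 members and 156 of 164 control members, 442 in all. Of the 27 barcodes below that line, 2 in TAA, 1 in TAA+C7.5 and 4 in TAA+C30 had at least 5 UMIs of blood progenitor genes, and 1 in TAA+C30 and 1 in control had at least 10 UMIs of fibroblast genes. This stricter criterion was added after the data were seen, and results that depend on it are given both ways. Among endothelial barcodes that met it, members were 86.4% (81.7 to 90.2) of 272 in TAA, 52.8% (40.7 to 64.7) of 72 in TAA+C7.5, 72.2% (46.5 to 90.3) of 18 in TAA+C30 and 6.08% (5.19 to 7.08) of 2565 in control. The order of the 2 celecoxib doses was thus the opposite of that without the criterion, and their intervals overlapped under both. In TAA, summed cholangiocyte markers were at 443 CPM (UMIs scaled to a summed total of 1000000) in members and at 18914 CPM in the other endothelial barcodes, and with 3 endothelial genes at 460 CPM and 2536 CPM.

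The label of vascular or capillarized cells held only in part. Clec4g or Stab2, which mark the sinusoid, were detected in 97.1% of members in TAA, 92.7% in TAA+C7.5, 47.6% in TAA+C30 and 92.7% in control. Clec4g UMIs were also found in 1.69% of B cells in TAA, 0.0714% in TAA+C7.5, 0.275% in TAA+C30 and 12.4% in control, at median depths of 3345, 1655, 2033 and 3186 UMIs. These B cells held fewer UMIs than members, and the part of free RNA in the members' sinusoidal UMIs was not tested. Every member has vascular UMIs by the rule. Most members of TAA, TAA+C7.5 and control, and 10 of 21 in TAA+C30, therefore had UMIs of both a sinusoidal and a vascular gene. These counts repeat the sinusoidal shares and do not separate vascular from capillarized cells. Ptprc, the pan-leukocyte gene, was detected in 9.88% of members in TAA, 9.76% in TAA+C7.5, 28.6% in TAA+C30 and 9.76% in control. Among members with 3 endothelial genes its shares were 8.51%, 5.26%, 7.69% and 8.33% in the same libraries. Clec4g was detected in 42.9% of all TAA+C30 members and in 61.5% of those with 3 endothelial genes.

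The 4 selecting genes lay at different loci and came from different members. Ednrb (chromosome 14, 103814625 to 103844402, minus strand, GRCm38) was detected in 95.9% of members in TAA, 85.4% in TAA+C7.5, 57.1% in TAA+C30 and 37.8% in control. Selp (chromosome 1, 164115264 to 164150026, plus strand) was detected in 56.0%, 22.0%, 38.1% and 51.2% of members in TAA, TAA+C7.5, TAA+C30 and control. Cd34 (chromosome 1, 194938819 to 194961279, plus strand) was detected in 80.2%, 39.0%, 61.9% and 30.5% in the same order of libraries. Vwf (chromosome 6, 125546774 to 125686679, plus strand) was detected in 27.2%, 9.76%, 23.8% and 37.8%. Among the 13 TAA+C30 members with 3 endothelial genes, Ednrb was detected in 84.6%, Selp in 46.2%, Cd34 in 46.2% and Vwf in 38.5%. In TAA, Ednrb, Cd34 and Selp were each found in most members, while in control only Selp was. In B cells these 4 genes were found in at most 0.942% of barcodes of any library. Thinned to 1000 UMIs, Ednrb was detected in 70.9% of TAA members and 26.4% of control members. Cd34 was then detected in 20.3% of TAA members and 11.04% of control members, and Selp in 20.7% and 19.0%.

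The rule cut through a continuum in control. A vascular sum of exactly 2 UMIs, just inside the threshold, was found in 13 members in TAA, 6 in TAA+C7.5, 3 in TAA+C30 and 54 in control. A sum of 1, just outside, was found in 32, 21, 3 and 172 endothelial barcodes of the same libraries. The median sum of members was 25 UMIs in TAA, 6 in TAA+C7.5, 7 in TAA+C30 and 4 in control, so the TAA members lay far from the threshold and many control members near it. Among control barcodes, Rspo3 was detected in 51.9% with a sum of 2 and in 15.1% with a sum of 1, and Clec4g or Stab2 in 100% and 97.7% of them.

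**Figure D2:**
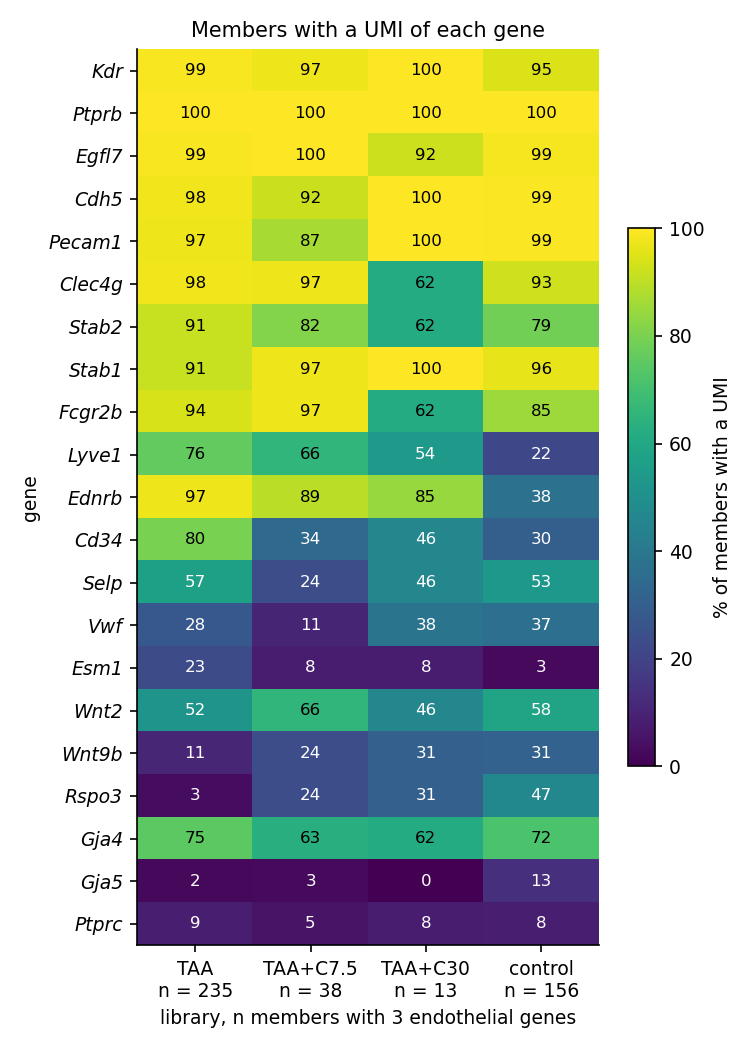
Percentage of members with 3 endothelial genes (colour and number) in which a UMI of each gene (rows) was detected, per library (columns, with the number of members). Clec4g, Stab1 and the general endothelial genes are detected in most members of TAA, TAA+C7.5 and control, Ednrb and Lyve1 in more TAA than control members, and Rspo3 in more control members.

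Control members fell into groups that hardly overlapped in their markers. Rspo3 (chromosome 10, 29452416 to 29535867, minus strand), which encodes a secreted Wnt enhancer made by central vein endothelium, was detected in 76 of 164 control members, and 7 of those also had Ednrb. Gja5 (chromosome 3, 96904693 to 97077416, plus strand), which encodes the arterial gap junction protein connexin 40, was detected in 22 control members, and 18 of those had Ednrb. No member of any library had UMIs of both Rspo3 and Gja5. Of the Selp-positive members, 69 of 84 in control had Rspo3 and 12 had Ednrb, and 131 of 136 in TAA had Ednrb, which 95.9% of all TAA members carried. Selp and Ednrb both chose the members, so these counts only describe the makeup of the selection.

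Summed levels within control showed the same division. Over control members with 3 endothelial genes, Gja5 was at 176 CPM in the 59 with Ednrb, at 0 CPM in the 67 with Rspo3 alone and at 97.1 CPM in the 30 with neither. Adgrg6, an adhesion receptor gene of the periportal list, was at 658 CPM with Ednrb, 9.53 CPM with Rspo3 alone and 217 CPM with neither. Sdc1, encoding the proteoglycan syndecan-1, was at 191, 0 and 60.1 CPM in these strata. Gja5, Adgrg6 and Sdc1 thus stood highest beside Ednrb, as did Ltbp4 (1033, 267 and 735 CPM), Efnb2, an arterial ephrin gene (289, 11.4 and 245 CPM), and Sox17, an arterial transcription factor gene (148, 55.3 and 111 CPM). Among other arterial genes, the connexin gene Gja4 did not, at 392, 608 and 194 CPM. Mgp was at 52.8, 17.2 and 398 CPM, but its UMIs came from 2, 4 and 1 barcodes. Hey1 was at 20.1, 0 and 41.6 CPM, and its first and last intervals overlapped (8.68 to 39.6 and 19.0 to 79.0). The elastin gene Eln was at 27.6, 187 and 13.9 CPM. On the Rspo3 side, Wnt9b, a Wnt ligand of the central vein, was at 30.1, 374 and 13.9 CPM, Cdh13 (T-cadherin) at 178, 685 and 134 CPM and Selp at 60.3, 414 and 143 CPM. Clec4g was at 1992, 1667 and 2368 CPM, so all 3 strata carried this sinusoidal gene. The strata were cut on Ednrb and Rspo3, and these levels are a description. Selp also chose the members, and those without Ednrb had to qualify on Selp, Vwf or Cd34. The Selp levels across the strata are therefore partly set by the rule.

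**Figure D3:**
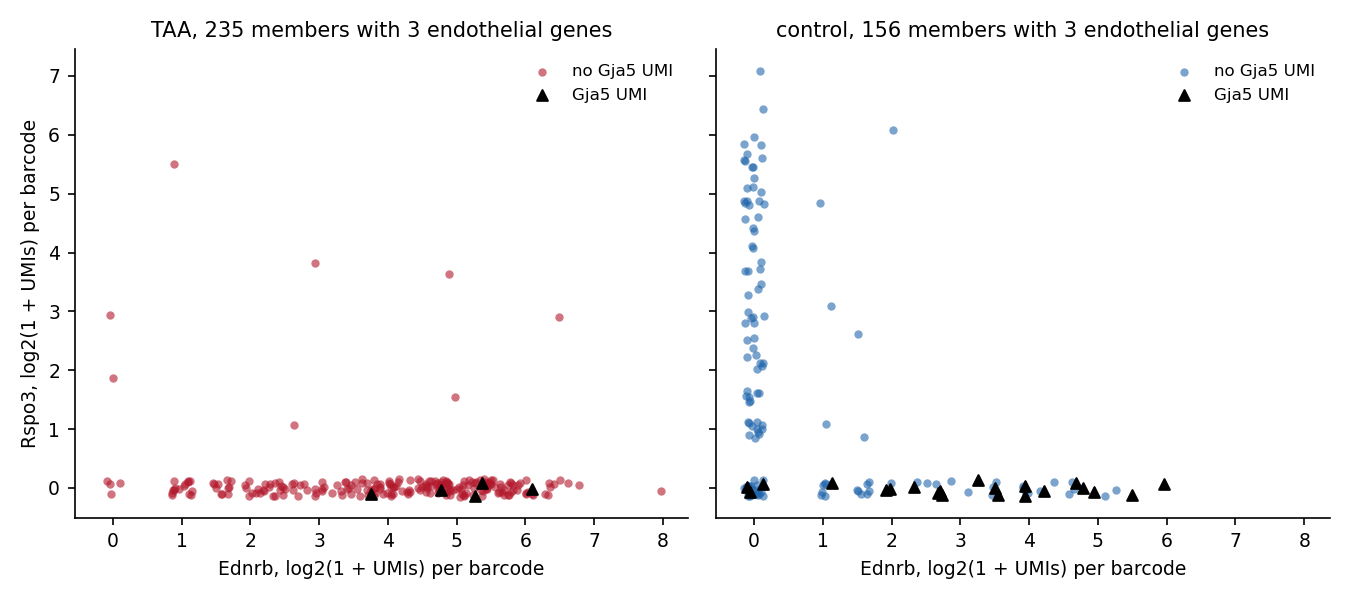
Rspo3 (y axis) against Ednrb (x axis), both as log2 of 1 plus UMIs per barcode with a small random offset, in TAA members (left) and control members (right) that have 3 endothelial genes. Triangles are members with a Gja5 UMI. Control members lie along 2 arms, one with Rspo3 and one with Ednrb and most of the Gja5 triangles, whereas TAA members lie along the Ednrb axis, with 8 above 0 for Rspo3.

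In TAA most members carried Ednrb and few carried Rspo3 or Gja5. Rspo3 was detected in 8 of 243 TAA members, 9 of 41 TAA+C7.5 members, 5 of 21 TAA+C30 members and 76 of 164 control members. Its level over all members was 27.9 CPM (22.3 to 34.5) in TAA, 433 (349 to 532) in TAA+C7.5, 371 (296 to 459) in TAA+C30 and 1185 (1124 to 1249) in control. Control was 42.4 times as high as TAA (34.1 to 53.4), and both celecoxib libraries lay between them with intervals clear of both. Over all endothelial barcodes with 3 endothelial genes, whether members or not, Rspo3 was at 27.6 CPM in TAA, 298 in TAA+C7.5, 597 in TAA+C30 and 148 in control. The place of the celecoxib libraries between TAA and control therefore held among members only. In TAA+C30 the value came from 5 Rspo3-positive members, and 1 of them held 50.0% of the UMIs.

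Gja5 was at 2.27 CPM (0.914 to 4.69) in TAA, 14.3 (2.94 to 41.7) in TAA+C7.5, 0 (0 to 16.3) in TAA+C30 and 76.7 (61.8 to 94.0) in control members. Compared among members with 3 endothelial genes and Ednrb alone, 229 in TAA and 59 in control, it was at 2.44 CPM in TAA and 176 CPM in control, 71.9 times as high in control (33.1 to 185). Both sides of that comparison hold Ednrb-positive members only, a small part of the control endothelium and most of that in TAA. Over all endothelial barcodes with 3 endothelial genes, 272 in TAA and 2565 in control, the Gja5 difference was smaller. It was at 2.25 CPM (0.903 to 4.63) in TAA and 7.57 CPM (6.13 to 9.24) in control, with a UMI in 1.84% and 1.01% of barcodes. In the Ednrb-positive members Adgrg6 was at 49.6 CPM in TAA and 658 CPM in control (13.3 times, 10.8 to 16.4), and Sdc1 at 3.14 CPM and 191 CPM (60.8 times, 30.4 to 138). Nrg1, encoding the growth factor neuregulin 1, was at 3.49 CPM in TAA and 188 CPM in control, and Jag1, a Notch ligand gene, at 34.2 CPM and 234 CPM. Ltbp4, which encodes a matrix protein that binds latent TGF-beta, was at 165 CPM in TAA and 1033 CPM in control. Other arterial genes were closer: in these Ednrb-positive members Gja4 was at 357 CPM (335 to 379) in TAA and 392 CPM (333 to 458) in control, Efnb2 at 166 CPM (152 to 182) and 289 CPM (239 to 347), and Sox17 at 116 CPM (103 to 129) and 148 CPM (113 to 191). The Ednrb-positive barcodes of the 2 mice thus differed in Gja5, Adgrg6, Sdc1, Nrg1, Jag1, Ltbp4 and Efnb2 by more than counting error, while the intervals of Gja4 and Sox17 overlapped. Ednrb itself, which set this stratum, was at 2018 CPM in TAA and 1565 CPM in control.

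The selecting genes can be read without the rule when all endothelial barcodes with 3 endothelial genes are summed. These were 272 in TAA, 72 in TAA+C7.5, 18 in TAA+C30 and 2565 in control. Ednrb was then at 1856 CPM in TAA, 890.1 in TAA+C7.5, 1079 in TAA+C30 and 51.9 in control, 35.8 times as high in TAA as in control (33.0 to 38.9). Selp was at 386, 110.0, 302 and 25.5 CPM, and Cd34 at 203, 97.1, 165 and 11.5 CPM in the same libraries. Vwf was at 90.8, 48.5, 187 and 36.5 CPM. All 4 genes were thus higher in the endothelium of TAA and TAA+C30 than in control when no vascular gene chose the barcodes, as were 3 of them in TAA+C7.5, where the Vwf interval (27.2 to 80.1) overlapped that of control (33.2 to 40.0). For Vwf in TAA this was the reverse of the order among members, where it was at 92.3 CPM in TAA, 61.9 in TAA+C7.5, 115 in TAA+C30 and 388 in control. Vwf was uneven in TAA as well, with 24 of the 235 members with 3 endothelial genes holding 82.0% of its UMIs. In TAA+C30 the levels without the rule rest on 18 barcodes. Among TAA+C30 members with 3 endothelial genes, 1 barcode held 68.3% of the Selp UMIs.

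Esm1 (chromosome 13, 113209659 to 113218098, plus strand), which encodes endocan, a secreted proteoglycan of sprouting tip cells, took no part in the rule. It was at 173 CPM (158 to 188) in TAA members, 28.6 (10.5 to 62.1) in TAA+C7.5, 39.7 (18.2 to 75.4) in TAA+C30 and 18.3 (11.5 to 27.8) in control, 9.43 times as high in TAA as in control (6.16 to 15.2). A UMI was found in 55 TAA members, 3 TAA+C7.5 members, 1 TAA+C30 member and 4 control members. Among Ednrb-positive members with 3 endothelial genes it was at 179 CPM in TAA and 0 in control, at least 23.8-fold higher when 3 counts stand for the 0 over the whole stratum. Its UMIs in TAA were concentrated, with 24 of 235 members holding 84.8% of them.

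Across all genes, TAA members were set against control members, the only pair with at least 50 members in each library. A gene was called past 2-fold from log2((CPM + 10) / (CPM + 10)) among genes with at least 20 UMIs over both. Of 10780 genes, 270 (2.50%) were at least 2-fold higher and 231 (2.14%) at least 2-fold lower in TAA. Over members with 3 endothelial genes, 304 of 10542 genes (2.88%) were higher and 205 (1.94%) lower. Over those that also had Ednrb, 413 of 9948 (4.15%) were higher and 185 (1.86%) lower. These shares are the background for the counts by gene list below. The median log2 ratio of all genes was -0.03, and scaling by trimmed means would add 0.10 to each ratio.

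Chemokine genes were higher in TAA members. Of 11 measured, 7 were at least 2-fold higher (Cxcl1, Cxcl2, Cxcl9, Cxcl10, Ccl2, Ccl21a and Ackr3) and 1 was lower (Cxcl12), with a median log2 ratio of 1.14. Cxcl10 (chromosome 5, 92346638 to 92348889, minus strand), a ligand of the T cell receptor Cxcr3, was at 1418 CPM (1376 to 1461) in TAA, 747 (635 to 873) in TAA+C7.5, 591 (495 to 700.4) in TAA+C30 and 175 (152 to 200.4) in control. TAA was 8.10 times as high as control (7.05 to 9.35), and both celecoxib libraries lay between with intervals clear of both. Cxcl9, another ligand of that receptor, was at 489 CPM (465 to 515) in TAA, 148 (100.2 to 209) in TAA+C7.5, 57.4 (30.5 to 98.1) in TAA+C30 and 58.3 (45.5 to 73.7) in control. TAA was 8.39 times as high as control for Cxcl9 (6.60 to 10.8), and the TAA+C30 interval overlapped that of control. The TAA+C30 value of Cxcl9 came from 2 members, and 1 of them held 92.3% of the UMIs. Over all endothelial barcodes with 3 endothelial genes the TAA to control ratio was 6.05 for Cxcl10 and 3.53 for Cxcl9. In Ednrb-positive members it was 7.63 and 9.97.

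Ccl21a UMIs came from 1 TAA barcode and 1 TAA+C30 barcode, and 85.5% of the control UMIs of Cxcl12 from 1 control barcode. Neither call therefore describes the members as a group, and with 3 endothelial genes Cxcl12 was not called. Cxcl10 was spread more widely, with a UMI in 69.1% of TAA members, 46.3% of TAA+C7.5 members, 33.3% of TAA+C30 members and 30.5% of control members, and after thinning in 44.7% of TAA and 10.4% of control members. B cells had Cxcl10 UMIs in at most 2.87% of barcodes.

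Interferon response genes were higher as a list, with 11 of 24 at least 2-fold higher and 0 lower, and a median of 0.84. Isg15, which encodes a ubiquitin-like modifier induced by interferon, was at 178 CPM (163 to 193) in TAA, 47.6 (22.8 to 87.5) in TAA+C7.5, 106 (67.9 to 158) in TAA+C30 and 20.8 (13.5 to 30.8) in control, 8.53 times as high in TAA as in control (5.72 to 13.3). Ifit1, of a family of similar genes whose 3 prime reads may not be fully separable, was at 77.3, 23.8, 48.5 and 6.67 CPM in TAA, TAA+C7.5, TAA+C30 and control. Irf1, a transcription factor induced by interferon gamma, was at 640.4 CPM (612 to 669) in TAA, 476 (387 to 579) in TAA+C7.5, 146 (100.3 to 205) in TAA+C30 and 216 (190.4 to 244) in control. The genes of the list did not all pass 2-fold: Gbp2 had a log2 ratio of -0.22 and Gbp4 of -0.25. None of 13 MHC class I genes passed 2-fold in either direction, with a median of -0.26. The interferon median was 0.82 with 3 endothelial genes and 0.81 with Ednrb as well.

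The promoters of the interferon genes are shown because these genes stood together. The 300 bases from 250 before to 50 after the start were read from RefSeq (GRCm38.p6) and searched on both strands for GAAANNGAAA, 2 GAAA repeats spaced as in interferon-stimulated response elements, with overlapping matches kept. Matches are in capitals, and each sequence is given 5′ to 3′ in the direction of transcription. Cxcl10 is at chr5:92348840-92349139 on the minus strand, Isg15 at chr4:156200769-156201068 on the minus strand and Ifit1 at chr19:34640639-34640938 on the plus strand.
Cxcl10: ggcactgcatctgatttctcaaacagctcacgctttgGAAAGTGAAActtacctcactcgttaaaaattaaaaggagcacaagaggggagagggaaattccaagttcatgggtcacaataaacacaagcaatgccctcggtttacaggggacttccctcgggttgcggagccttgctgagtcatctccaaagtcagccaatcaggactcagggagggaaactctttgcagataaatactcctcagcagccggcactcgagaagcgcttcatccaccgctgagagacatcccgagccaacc
Isg15: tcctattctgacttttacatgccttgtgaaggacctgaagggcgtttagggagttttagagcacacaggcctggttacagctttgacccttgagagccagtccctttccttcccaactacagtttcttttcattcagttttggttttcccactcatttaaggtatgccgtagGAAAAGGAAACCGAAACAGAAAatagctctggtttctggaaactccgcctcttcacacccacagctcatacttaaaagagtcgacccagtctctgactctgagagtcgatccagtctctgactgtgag
Ifit1: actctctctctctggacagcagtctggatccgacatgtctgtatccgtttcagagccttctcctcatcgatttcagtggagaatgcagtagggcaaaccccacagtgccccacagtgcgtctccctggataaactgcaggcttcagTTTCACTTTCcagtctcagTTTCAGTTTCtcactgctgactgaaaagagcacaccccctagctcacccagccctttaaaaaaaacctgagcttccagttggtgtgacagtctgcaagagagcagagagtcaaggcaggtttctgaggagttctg
The motif was found 1 time for Cxcl10, 3 times for Isg15 and 2 times for Ifit1. These 3 were picked as the called genes with the motif and the highest ratios. It was in 5 of the 9 called genes of the list that had a promoter in the table, in 6 of the 9 that were not called and in 1079 of all 27025 promoters (3.99%). Called and uncalled genes of the list thus held it about equally often, and a match is a description of letters only.

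Inflammatory and NF-kB genes were higher in part. Of 19 measured, 8 were at least 2-fold higher and 0 lower, with a median of 0.29, and with 3 endothelial genes and Ednrb the counts were 10 and 0 with a median of 1.04. The 8 included Il1b and Tnf, cytokine genes that macrophages are known to make. Socs3, a feedback inhibitor of cytokine signalling, was at 882 CPM (849 to 916) in TAA, 757 (644 to 884) in TAA+C7.5, 353 (280.0 to 439) in TAA+C30 and 241 (214 to 270.3) in control. Tnfaip3, a brake on NF-kB, was at 368, 80.9, 124 and 87.5 CPM. Socs3 in TAA+C7.5 was close to TAA, while Tnfaip3 in both celecoxib libraries was close to control. Sele (E-selectin), which slows leukocytes on the vessel wall, was at 89.3 CPM (79.1 to 101) in TAA, 38.1 (16.4 to 75) in TAA+C7.5, 13.2 (2.73 to 38.7) in TAA+C30 and 24.2 (16.2 to 34.7) in control. Immediate early genes, which dissociation can induce, stood on the same side, with 4 of 19 higher (Fos, Atf3, Egr1 and Myc), 0 lower and a median of 0.37. Their part in the inflammatory result was not tested.

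Markers of other cells were low in members but were not equal between libraries. Summed macrophage or monocyte markers, 11 of 11 detected in TAA, were at 370 CPM in TAA, 246 in TAA+C7.5, 352 in TAA+C30 and 109 in control members with 3 endothelial genes. Cholangiocyte markers were at 460, 32.1, 17.2 and 31.6 CPM, and the haemoglobin and other erythroid genes at 477, 123, 8.60 and 2756 CPM. Of the erythroid UMIs of all members, 1359 of 1415 in TAA and 2775 of 3150 in control came from 1 barcode each. Spp1 (osteopontin), a cholangiocyte and macrophage gene, had the largest log2 ratio of the genes named over members with 3 endothelial genes, 3.58, at 413 CPM in TAA, 10.7 in TAA+C7.5, 17.2 in TAA+C30 and 25.5 in control. Over all TAA members, 51.0% of its UMIs came from 1 barcode. The part of other cells in the gene results was not tested.

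**Figure D4:**
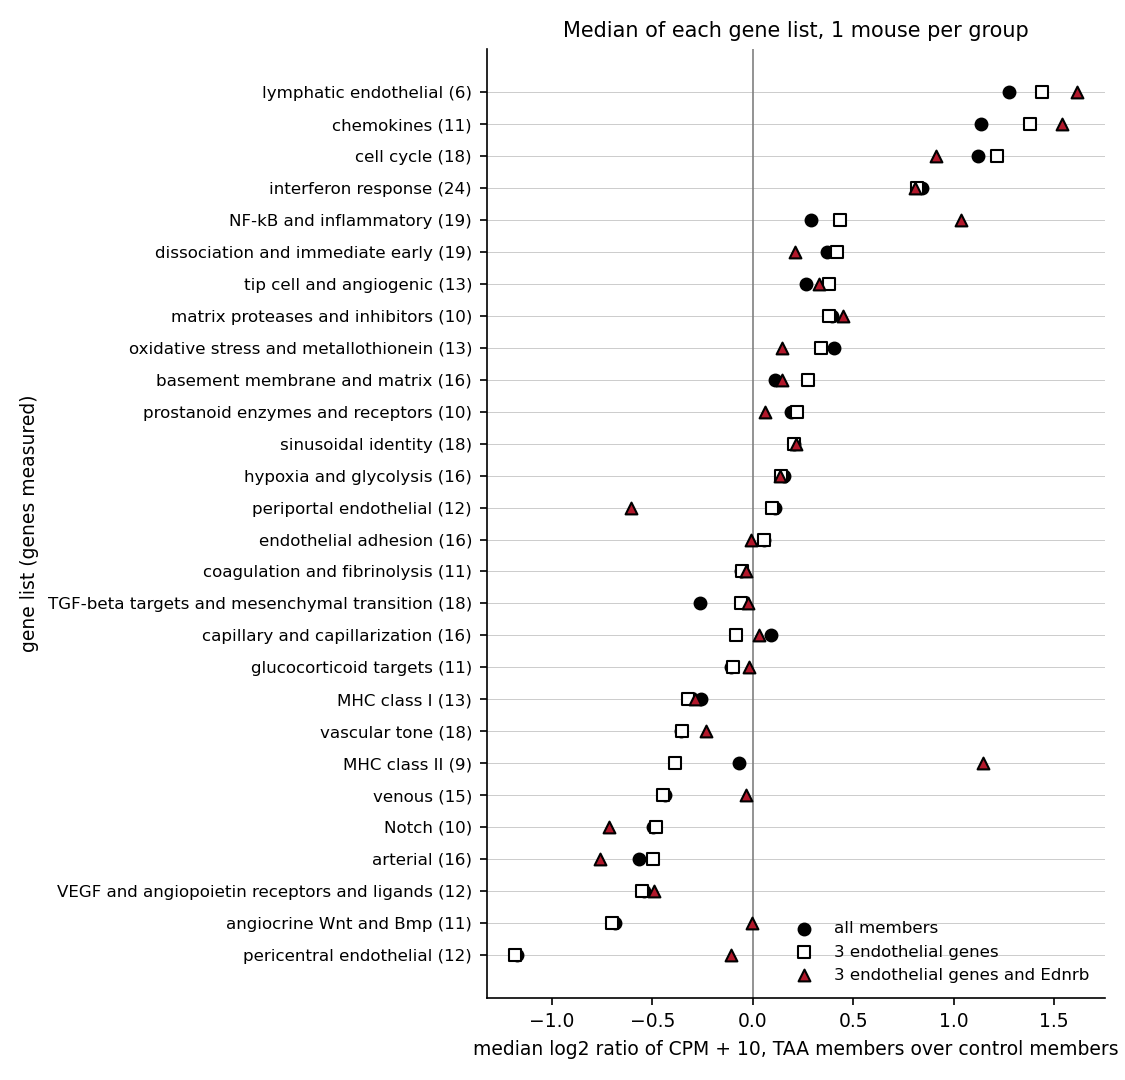
Median log2((CPM + 10) / (CPM + 10)) of TAA members over control members (x axis) for each gene list (y axis, number of genes measured with 3 endothelial genes), over all members (filled circles), those with 3 endothelial genes (open squares) and those that also have Ednrb (triangles). Lists are shown whole, with any gene that chose the members. Chemokine, cell cycle and interferon medians lie between 0.81 and 1.54 in all 3 sets, the pericentral median is -1.18 over all members and -0.11 with Ednrb, and the MHC class II median is -0.07 over all members and 1.15 with Ednrb.

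Pericentral genes were lower in TAA members, with 7 of 12 at least 2-fold lower, 0 higher and a median of -1.18. Besides Rspo3, Wnt2, a Wnt ligand that acts on nearby hepatocytes, was at 168 CPM (153 to 183) in TAA, 533 (439 to 641) in TAA+C7.5, 110.3 (71.4 to 163) in TAA+C30 and 406 (371 to 444) in control. Wnt9b was at 27.0, 99.9, 61.8 and 178 CPM, and Cdh13 at 53.9, 171, 79.4 and 385 CPM in the same libraries. In TAA+C7.5 Wnt2 was thus above TAA, and its interval overlapped that of control. Over all endothelial barcodes with 3 endothelial genes, whether members or not, Wnt2 was at 166 CPM in TAA and 452 CPM in control. Wnt9b was then at 26.6 CPM (21.2 to 33.0) in TAA and 31.4 CPM (28.4 to 34.6) in control, with overlapping intervals. The Wnt9b difference therefore held among members only. Among Ednrb-positive members with 3 endothelial genes Wnt2 was at 178 CPM in TAA and 173 CPM in control, and Wnt9b at 29.0 and 30.1 CPM. The list then had 2 of 12 lower and 1 higher, with a median of -0.11, so the list as a whole was near 0 where both sides held Ednrb. Rspo3 itself was still 11.2 times as high in control in that stratum (8.30 to 15.1), but from 6 barcodes in each library. A single barcode held 42 of its 76 UMIs in TAA, and another held 74 of its 118 UMIs in control. That ratio therefore does not describe the stratum as a group.

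Arterial genes were lower as well, with 7 of 16 at least 2-fold lower and 1 higher, and a median of -0.57, or -0.76 with 3 endothelial genes and Ednrb. Those lower over all members were Gja5, Fbln5 (fibulin 5, an elastic fibre protein), Jag1, Edn1 (endothelin 1), Mgp, Fbln2 and Cxcl12. Of the control UMIs of Mgp, 74.1% came from 1 barcode. Without the barcodes below 3 endothelial genes, Cxcl12 had a log2 ratio of -0.62 and was not called. Eln, the elastin gene, was at 3.90 CPM in TAA, 9.52 in TAA+C7.5, 22.1 in TAA+C30 and 95 in control. The periportal list without Ednrb, which chose the members, had 1 of 11 higher (Cd36) and 3 lower over all members, with a median of 0.09. Among Ednrb-positive members with 3 endothelial genes it had 0 higher and 5 lower (Ltbp4, Adgrg6, Ntn4, Efna1 and Mecom), with a median of -0.76.

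Among members, genes of the sinusoid did not separate the TAA and control libraries. Of 18 identity genes, 2 were at least 2-fold higher in TAA members and 0 lower, with a median of 0.20 over all members, 0.20 with 3 endothelial genes and 0.22 with Ednrb as well. Clec4g was at 2191 CPM in TAA, 2175 in TAA+C7.5, 679.7 in TAA+C30 and 1823 in control, and Stab2 at 922, 814, 296 and 860.2 CPM. With 3 endothelial genes the TAA+C30 values were 1298 CPM for Clec4g and 576 CPM for Stab2, nearer to the other libraries. The 2 genes called were Cd36, a fatty acid transporter, and Lyve1 (chromosome 7, 110850607 to 110863239, minus strand), a hyaluronan receptor of sinusoidal and lymphatic endothelium. Lyve1 was at 569 CPM (542 to 596) in TAA, 971 (842 to 1113) in TAA+C7.5, 388 (311 to 478) in TAA+C30 and 74.2 (59.6 to 91.3) in control, 7.66 times as high in TAA as in control (6.19 to 9.59). Over all endothelial barcodes with 3 endothelial genes Lyve1 was at 602 CPM in TAA and 354 CPM in control, a ratio of 1.70. Control members were thus lower in Lyve1 than control endothelium as a whole. Stab1, Stab2, Clec4g and Fcgr2b went the other way over these barcodes, lower in TAA with intervals apart. They were at 950, 948, 2240 and 2232 CPM in TAA and at 1441, 1444, 2941 and 2838 CPM in control.

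Genes of closed capillaries did not stand on one side among members. Of 15 measured in the capillarization list once Cd34 and Vwf, which chose the members, were left out, 2 were at least 2-fold higher (Esm1 and Ly6c1) and 2 lower (Plvap and Fabp4), with a median of 0.09. With 3 endothelial genes Sparc was higher as well, and with Ednrb too Esm1 was the only one past 2-fold. Plvap, the protein of endothelial diaphragms, was at 192 CPM (177 to 208) in TAA, 247 (185 to 324) in TAA+C7.5, 300.1 (233 to 380.5) in TAA+C30 and 453 (415 to 492) in control. Sparc, a matrix glycoprotein gene, was at 2001, 1508, 900.3 and 1001 CPM. Over all endothelial barcodes with 3 endothelial genes, Plvap was at 195 CPM in TAA and 202 CPM in control, with overlapping intervals. Ly6c1 was then at 69.6 CPM in TAA and 1.89 CPM in control, and Esm1 at 181 and 15.8 CPM. Among members, 0 of 17 basement membrane and matrix genes were higher and 1 was lower, with a median of 0.11. Of 18 TGF-beta target genes 0 were higher and 1 lower, with a median of -0.26. The 1 lower TGF-beta target, Tgfbi, had a log2 ratio of -1.03, and of -0.08 with 3 endothelial genes. Tip cell genes other than Esm1 stayed within 2-fold over all members except Pdgfb, with a log2 ratio of -1.62. With 3 endothelial genes Plaur was higher as well. With Ednrb too, and with Kdr, which chose the members, left out, 4 of 11 were higher (Esm1, Kcne3, Unc5b and Plaur). In that set 1 was lower (Pdgfb), with a median of 0.42. Within the lymphatic list, 4 of 7 genes were higher over all members, among them Mmrn1 and Ccl21a, whose UMIs came from 2 and 1 TAA barcodes.

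Cell cycle genes were higher in TAA members, with 11 of 18 at least 2-fold higher, 0 lower and a median of 1.12. Top2a, a DNA topoisomerase of dividing cells, was at 86.1 CPM (76.0 to 97.1) in TAA, 61.9 (32.9 to 106) in TAA+C7.5, 88.3 (53.9 to 136) in TAA+C30 and 20.0 (12.8 to 29.8) in control. With 3 endothelial genes it was at 77.1, 26.7, 68.8 and 0.878 CPM, the last from 1 UMI. Barcodes with cycling genes were 33 of 235 in TAA, 3 of 38 in TAA+C7.5, 2 of 13 in TAA+C30 and 1 of 156 in control. Thinned to 1000 UMIs, these shares were 4.33% in TAA, 5.41% in TAA+C7.5, 0% in TAA+C30 and 0% in control, so the shares depended on depth.

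**Figure D5:**
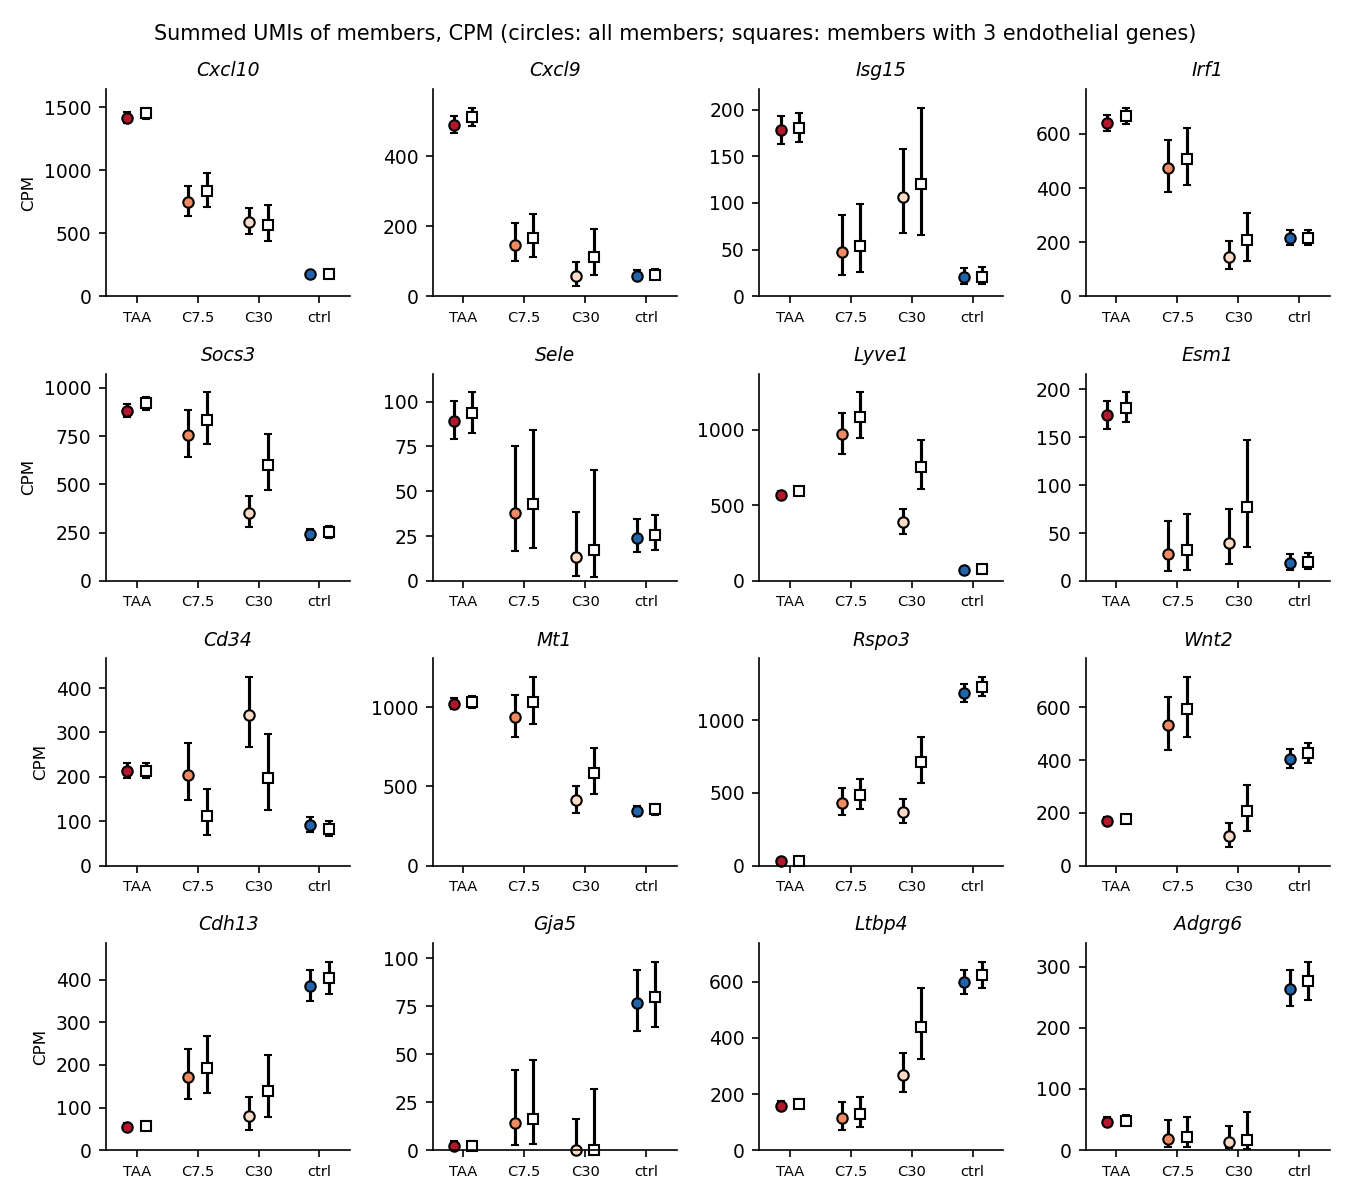
Level in CPM (y axes, each starting at 0) of 16 genes in TAA, TAA+C7.5 (C7.5), TAA+C30 (C30) and control (ctrl) libraries, over all members (circles) and members with 3 endothelial genes (squares), with exact Poisson intervals. Cxcl10 is highest in TAA at 1418 CPM and lowest in control at 175 CPM, Lyve1 is highest in TAA+C7.5 at 971 CPM, and Rspo3, Cdh13, Gja5, Ltbp4 and Adgrg6 are highest in control.

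Among single genes, those furthest above control over all members, once the rule's own genes and carry-over were set aside, included Cnmd, Csf2rb2, Asb4 and Rasd1. Cnmd, which encodes chondromodulin, an inhibitor of vessel growth, was at 177 CPM (162 to 192) in TAA, 66.6 (36.4 to 112) in TAA+C7.5, 13.2 (2.73 to 38.7) in TAA+C30 and 11.7 (6.38 to 19.6) in control, 15.1 times as high in TAA as in control (8.95 to 27.9). Csf2rb2, the mouse interleukin 3 receptor beta subunit, was at 115, 57.1, 61.8 and 5.00 CPM. It shares much sequence with Csf2rb, at 77.7, 19.0, 70.6 and 4.17 CPM, and reads of the pair may not be fully separable. Asb4 was at 122, 124, 30.9 and 6.67 CPM, and Rasd1, a small GTPase gene induced by dexamethasone, at 145, 148, 70.6 and 10.0 CPM. For Asb4 and Rasd1 the TAA+C7.5 level was that of TAA. Myc, a growth-promoting transcription factor, was at 129, 19.0, 26.5 and 11.7 CPM, with both celecoxib libraries near control.

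Some genes with extreme ratios came from single barcodes. Elane, Ctsg, Prtn3 and Mpo, protease and peroxidase genes of granulocyte precursors, had log2 ratios of 4.27, 4.20, 4.06 and 3.67 over all members. Elane UMIs lay in 1 TAA member, and with 3 endothelial genes Elane had a log2 ratio of 0.00. Dcn (decorin), a fibroblast gene, had a log2 ratio of -3.98 over all members and of 0.19 with 3 endothelial genes. Hgf, the hepatocyte growth factor gene, was spread over 178 TAA, 22 TAA+C7.5, 5 TAA+C30 and 32 control members and was at 253 CPM (236 to 272), 247 (185 to 324), 61.8 (33.8 to 104) and 67.5 (53.6 to 83.9).

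The metallothioneins Mt1 and Mt2, metal-binding proteins of the stress response, were higher in TAA members. Mt1 was at 1021 CPM (985 to 1057) in TAA, 937 (811 to 1078) in TAA+C7.5, 410.4 (331 to 503) in TAA+C30 and 343 (310.3 to 377) in control, and Mt2 at 376, 295, 110.3 and 85.9 CPM. Of 13 oxidative stress genes 3 were higher, the third being Hmox1, and 0 lower. Mt1 and Mt2 are similar in sequence, and their reads may not be fully separable.

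Ptgs2, which encodes cyclooxygenase 2, the enzyme celecoxib inhibits, was detected in few members, whereas Ptgs1, which encodes the constitutive cyclooxygenase 1, was detected in 76.5% of TAA and 74.4% of control members. Ptgs2 was at 8.45 CPM (5.52 to 12.4) in TAA, 14.3 (2.94 to 41.7) in TAA+C7.5, 57.4 (30.5 to 98.1) in TAA+C30 and 5.83 (2.35 to 12.0) in control, from 8, 1, 4 and 3 members. With 3 endothelial genes 9, 0, 2 and 2 UMIs were left, so a change was not detectable at this depth. Ptgs1 was at 263 CPM (245 to 282) in TAA, 333 (259.7 to 421) in TAA+C7.5, 212 (156 to 281) in TAA+C30 and 501 (462 to 543) in control, 1.91 times as high in control as in TAA (1.71 to 2.12). Among Ednrb-positive members with 3 endothelial genes the TAA to control ratio of Ptgs1 was 1.04 (0.850 to 1.29). Slco2a1, the prostaglandin transporter, was the only one of 12 prostanoid genes measured past 2-fold, at 1016, 757, 393 and 463 CPM, and it was higher in TAA.

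For the 2 celecoxib libraries, 41 and 21 members gave values with wide intervals and no comparison across all genes. In TAA+C7.5, Cxcl9, Esm1, Isg15, Tnfaip3 and Myc lay below TAA with intervals apart, Rspo3, Wnt2 and Lyve1 above TAA with intervals apart, and Mt1, Hgf, Asb4 and Rasd1 overlapped TAA. In TAA+C30, Cxcl9, Irf1, Hgf, Mt1 and Cnmd lay below TAA with intervals apart. Rspo3, Wnt9b, Plvap and Ltbp4 lay above TAA there with intervals apart. The Wnt9b UMIs of TAA+C30 came from 4 members, and 1 of them held 11 of the 14. However, 8 of the 21 TAA+C30 members had under 3 endothelial genes. With those left out, Mt1 was at 584 CPM, Hgf at 120 CPM, Irf1 at 206 CPM and Cxcl9 at 112 CPM in TAA+C30, each still below its TAA level of 1033, 265, 666 and 511 CPM. Rspo3 was then at 713 CPM and Plvap at 584 CPM in TAA+C30, both still above TAA at 29.2 and 201 CPM. In that set 1 barcode held 92.3% of the Cxcl9 UMIs of TAA+C30, and 1 held 50.6% of the Rspo3 UMIs. The genes of this paragraph were singled out after their values were seen.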

How the data were processed

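The deposited matrices hold whole-number UMI counts per gene and barcode, which the authors made with Cell Ranger 3.1.0 on build mm10, per the submitters' processing notes. Per the labels' protocols, livers were digested with enzymes, red cells were lysed and hepatocytes were mostly spun out at low speed. The libraries give the 3 prime ends of transcripts. Cell calling settings and the annotation are not given in the sources used here. All 55450 gene IDs were found in GENCODE M21 (GRCm38), which gave the coordinates.

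Members were chosen as described above, with Python 3.11.15, NumPy 2.4.6, SciPy 1.17.1 and pandas 2.3.3. Doublets were called with Scrublet in Scanpy 1.11.5 and kept. UMIs of members were summed per library and scaled to CPM, with exact Poisson intervals for levels, exact conditional binomial intervals for ratios and Clopper-Pearson intervals for shares. PCR duplicates were collapsed by UMI, and intervals cover counting error only. The comparison across genes was checked on simulated data. Per comparison the text names from the 10 highest and 10 lowest genes that reached 50 CPM and 20 UMIs in the library where they were higher, leaving out the rule's genes, haemoglobin, immunoglobulin, ribosomal, mitochondrial and hepatocyte genes and genes under 10% of their level in T cells, B cells, neutrophils or macrophages. Up to 4 examples per list were added. Counts of the capillarization, periportal, tip cell and adhesion lists leave out the genes that chose the members, a choice made after seeing the data. The members, the lists and the thresholds were chosen with earlier results of these data known. The alternatives were the marker threshold, the leukocyte limit, doublet removal, barcode depth, mitochondrial limit, haemoglobin, thinning, pseudocount, low-count filter, scaling, barcode weight and the Ednrb-positive members.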

Additional observations from a re-analysis of the deposited data

How the results depend on the processing

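The member share of endothelial barcodes was 61.4% in TAA, 33.9% in TAA+C7.5, 27.3% in TAA+C30 and 5.44% in control. Thinned to 1000 UMIs first, it was 53.3% in TAA, 23.4% in TAA+C7.5 and 1.96% in control, and with 3 endothelial genes 86.4% in TAA, 52.8% in TAA+C7.5 and 72.2% in TAA+C30. In control it was also 3.65% at 3 vascular UMIs, 6.40% over barcodes of at least 1000 UMIs and 6.82% at a mitochondrial limit of 10%. The TAA to control ratio of shares of kept barcodes, 1.32, was 1.86 at 3 vascular UMIs and 2.39 after thinning. Genes at least 2-fold higher in TAA numbered 706 with a pseudocount of 1, 74 with 50 and 413 with 3 endothelial genes and Ednrb, against 270, and lower ones 587 with 1 and 56 with 50, against 231. Medians or ratios that changed sign included those of the angiocrine list (0.053 with Ednrb, against -0.69), the blood progenitor list (-0.15 with no leukocyte UMI, against 1.04), the erythroid list (0.68 with Ednrb and 0.76 with 3 endothelial genes as well, against -2.65) and Dcn (0.19 with 3 endothelial genes and 0.012 with Ednrb as well, against -3.98). With 3 endothelial genes and Ednrb, so did the medians of the MHC class II list (1.15, against -0.07), the periportal list without Ednrb (-0.76, against 0.09) and, on few genes, the fibroblast and mural list (0.45, against -1.61). Smaller changes of sign near 0, as for the capillarization and adhesion lists, were not listed. The cause was not tested. Of the other values, 436 log2 ratios of named genes stayed within the counting error of the reported value and 103 moved beyond it, and of list medians 526 and 41.

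No paired analysis was possible because each group is 1 mouse, and leaving out a replicate would leave an empty group. Both celecoxib comparisons across genes, members without Ednrb (10 in TAA) and thinned members (49 in control) fell under 50 members and were not run.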

Other observations

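Among Ednrb-positive members with 3 endothelial genes, 229 in TAA and 59 in control, MHC class II genes and some leukocyte adhesion genes stood higher in TAA. Of 9 MHC class II genes measured, 5 were at least 2-fold higher and 0 lower, with a median log2 ratio of 1.15, against -0.07 over all members. H2-Aa, a chain of the presenting molecule, was at 91.5 CPM in TAA and 20.1 CPM in control, a ratio of 4.55 (2.28 to 10.7). Cd74, the invariant chain gene, was at 213 CPM in TAA and 72.9 CPM in control, a ratio of 2.93 (2.02 to 4.41). Macrophages and B cells are known to express these genes strongly, and summed macrophage markers were also higher in TAA, at 370 CPM against 109 CPM in control members with 3 endothelial genes. Their part in these values was not tested. None of 13 MHC class I genes passed 2-fold, with a median of -0.29. Of 14 adhesion genes other than Selp and Cdh5, which chose the members, 3 were higher (Sele, Icam1 and Vcam1) and 1 was lower (Alcam), with a median of -0.01, so the adhesion list as a whole was near 0. Vcam1, a ligand of leukocyte integrins, was at 906 CPM in TAA and 374 CPM in control (2.42 times, 2.05 to 2.87), and Icam1 at 496 CPM and 236 CPM (2.10 times, 1.70 to 2.61).

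Within TAA, 55 of the 235 members with 3 endothelial genes had an Esm1 UMI and 180 had none. Of the 49 other genes followed, 23 had intervals apart between them, 14 higher and 9 lower in Esm1-positive members. The share of all measured genes with intervals apart was not taken, so this count does not mark out these genes. The intervals pool the UMIs of different barcodes. Median depths were 13437 UMIs in Esm1-positive members and 11464 UMIs in the others. Kcne3, a potassium channel subunit gene of tip cells, was at 41.1 CPM (28.1 to 58.0) in Esm1-positive members and 7.39 (4.22 to 12.0) in the others, and Dll4, a Notch ligand gene, at 168 CPM and 77.1 CPM. Cxcl9 was at 949.8 CPM (883 to 1021) in Esm1-positive members and 353 (329 to 379) in the others. Cxcl10 was at 2025 CPM and 1245 CPM, and Cd36 at 1761 CPM and 1193 CPM. Ednrb was lower in Esm1-positive members, at 1543 CPM against 2114 CPM, as was Ptgs1, at 153 CPM against 313 CPM. Plvap was lower, at 100.1 CPM against 237 CPM. Rspo3, counted among the 9 lower genes, was at 0 CPM against 39.7 CPM. It was detected in only 8 of the 235 members, and 1 barcode held 48.8% of its UMIs, so its 0 rests on few barcodes. Esm1 chose these groups in 1 mouse, and the values are a description.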
